A study of Homo sapiens with 35 samples.

Results

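The pentose phosphate pathway and the other enzymes that make NADPH were followed by RNA sequencing in RPMI-8226 cells, an established human multiple myeloma line, after a pulse of the proteasome inhibitor carfilzomib. The 9 genes described are PGLS, PGD, RPE, RPIA, TKT, TALDO1, ME1, ME2 and IDH1, chosen by name for what their products do, and each had a protein-coding entry among the 19665 such entries of the count table. Of these entries, 17999 had a count in any library, all 9 members included. RNA was collected on day 0, before the drug, and on days 1, 2, 4, 6, 8 and 10 after 1 h of carfilzomib at 750 nM, from 5 subcultures a day and 35 libraries in all. The subcultures were split from a common expanded culture of a single line, so the p-values measure the spread between subcultures. The RNA-sequencing methods give no selection of live cells, so dying cells may have been included, and no untreated culture of a later day was analysed here, so recovery from the drug and time in culture cannot be told apart. Per the methods, day 0 cells had been put in fresh medium, and days 2 to 10 were sampled just before a medium change. Cell density was adjusted on days 6 and 8. The age of the medium and the density thus cannot be told apart from the day either.

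Libraries held 6519392 to 10962890 estimated counts, of which 5373835 to 9307889 were protein-coding, and a member held at least 111 counts in every library. Levels are given in CPM, the edgeR unit of counts relative to the protein-coding library size after TMM scaling, with mean ± SD over 5 libraries, and changes as log2 fold changes ± SE from edgeR. Q is the p-value after Benjamini–Hochberg adjustment over the 17999 entries, and a change was called at Q ≤ 0.05. The plasma cell genes SDC1, XBP1, IRF4, PRDM1 and CD38 had counts in every library. The summed level of 7 plasma cell markers was 1486 to 1594 CPM at day 0, 1108 to 1229.6 CPM at day 1 and 1502 to 1612 CPM at day 10. The B cell marker MS4A1 was at 3.73 to 13.3 CPM and PAX5 at 0.963 to 4.71 CPM over the 35 libraries. Of 3 T cell markers, CD3D and CD2 were each at 0 in 32 libraries, but CD3E had counts in every library, at 0.441 to 4.81 CPM. The sum of these 3 was 2.14 to 4.81 CPM at day 0 and 0.588 to 1.20 CPM at day 1. The sums of 3 myeloid and 3 stromal markers were at most 2.21 CPM and 1.58 CPM. LYZ was at 0 in 28 libraries, CSF1R in 21 and CD14 in 7, and COL1A2 was at 0 in 35, DCN in 14 and COL1A1 in 6. The part of these differences in the results was not tested.

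The pentose phosphate pathway is a side branch of glucose breakdown in the cytosol. Its oxidative branch oxidizes phosphorylated glucose to a pentose phosphate and reduces NADP+ to NADPH, and its nonoxidative branch interconverts pentose phosphates with intermediates of glycolysis, so that ribose for nucleotides and NADPH can be made in different proportions. NADPH is the electron donor for glutathione and thioredoxin reduction and for the synthesis of fatty acids and cholesterol. Malic enzymes and NADP+-dependent isocitrate dehydrogenases are further sources of it. Several of these genes are known targets of NRF2 (encoded by NFE2L2), which binds antioxidant response elements and is held low by ubiquitin-dependent degradation in the proteasome.

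The 9 genes lie on 7 chromosomes of GRCh38. In GENCODE release 44, PGLS lies at chr19:17511636-17521288 (+ strand), PGD at chr1:10398592-10420511 (+ strand) and TALDO1 at chr11:747415-765012 (+ strand). RPE lies at chr2:210002565-210022260 (+ strand), RPIA at chr2:88691673-88750929 (+ strand) and TKT at chr3:53224712-53256052 (− strand). ME1 lies at chr6:83210402-83431051 (− strand), ME2 at chr18:50879080-50954257 (+ strand) and IDH1 at chr2:208236229-208266074 (− strand). RPE overlaps KANSL1L on the opposite strand, which held 95 to 268 counts in a library, and its retrocopy RPEL1 held 0 or 1 count. Whether strand was used in counting is not given in the sources used here, so reads could have been divided between RPE and KANSL1L.

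Because NRF2 is itself degraded by the proteasome, the promoters of the 9 members were searched for the core of the antioxidant response element, TGACNNNGC, on both strands (GCNNNGTCA when read on the other strand). RefSeq (GRCh38.p14) gave 10 windows of 250 bases before a start site for the 9 members, all matched by symbol, and a match was found for 4 of the 9 members. Of all 35116 such windows, 10.9% held a match. The AP-1 motif TGANTCA begins with the same letters and can overlap this core. The matches are shown with the bases around them, 5′ to 3′ on the strand of the gene, with the core in capitals, since they are the members whose promoters hold it. PGD holds it at chr1:10398853-10398882 in the reverse orientation, inside the span that GENCODE gives the gene. RPE holds it at chr2:210002477-210002506, ME1 at chr6:83431169-83431198 and IDH1 at chr2:208255195-208255224, in the second of its windows and also inside the GENCODE span of the gene.
PGD: cctcgccgggGCAATGTCAtctaggtgctc
RPE: ggcggacggcTGACAGCGCcccaccccagg
ME1: tctcctgccaTGACTCAGCgcttctcgcag
IDH1: cccctctcgcTGACTCCGCccatcccacgg
The windows of PGLS, RPIA, TKT, TALDO1 and ME2 held no match, which says only that these letters are not in those bases.

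On day 1 after the pulse, 7 of the 9 members were higher than on day 0 and 2 were lower. TALDO1, PGD and TKT rose by 5.26, 3.60 and 2.29 times, and RPE, ME1, ME2 and IDH1 rose by 1.88 to 1.92 times, while RPIA and PGLS fell to 0.655 and 0.779 times their day 0 level. Over all 17999 entries, 25.4% were called higher and 27.3% lower on that day, and 7.27% were called higher by over 2-fold, as 3 members were. These shares, like those of later days, include entries with few counts, which can hardly be called. All 9 members passed a filter on low counts. Of the 12301 entries that passed it, 4445 were called higher on day 1, 4276 lower and 1183 higher by over 2-fold. The median log2 change was 0.93 over the members and -0.06 over all entries tested. The levels are relative to the rest of the library, and in bulk RNA fewer cells of a kind and less RNA per cell cannot be told apart.

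On day 2, 5 members were called higher (TKT, PGD, TALDO1, RPE and ME2, against 23.2% of all entries) and 1 lower (RPIA, against 24.4%), and ME2 was the member higher by over 2-fold (against 6.32%). On day 4, the same 5 members were called higher (against 19.0%) and RPIA and IDH1 lower (against 20.1%), and none was higher by over 2-fold (against 4.12%). On day 6, PGLS, PGD, RPE, TKT and TALDO1 were called higher (against 17.5%) and RPIA and IDH1 lower (against 17.0%), with TKT higher by over 2-fold (against 3.18%). The PGLS call of day 6 was lost without replicate 5 of that day (0.25, Q = 0.0661), and ME2 was called higher on it with biotypes summed (0.40 ± 0.05, Q = 1.39e-08). On day 8, 6 members were called higher, those of day 6 and ME2 (against 18.2%), and the same 2 lower (against 18.6%), with TKT again higher by over 2-fold (against 3.60%). The TKT change lay close to 2-fold on both days. It fell under 2-fold on day 6 with low entries filtered out, with DESeq2 or its size factors, and without replicate 2 or 5 of day 6 or replicate 3 of day 0 (log2 change down to 0.98), and on day 8 without replicate 3 of day 0 (0.99). With biotypes summed it was 0.92 ± 0.06 and 0.94 ± 0.06 on these days, and that of ME2 on day 2 was 0.94 ± 0.05, so that none of the 3 was over 2-fold. On day 10, PGD, RPE, TKT, TALDO1 and ME2 were still called higher (against 16.1%) and IDH1 lower (against 15.8%), none by over 2-fold (against 2.41% of entries higher by that much). From day 2 to day 10, in order, the median log2 change of the members was 0.56, 0.45, 0.30, 0.41 and 0.22, and that of all entries -0.04, -0.02, 0.00, -0.01 and -0.02. All 6 comparisons share the day 0 libraries. Without TMM scaling, higher calls made up 59.3% of all calls on day 2, 61.6% on day 4 and 60.4% on day 10, in place of 48.7%, 48.6% and 50.4%, and every member called against day 0 kept its call and direction.

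**Figure D1:**
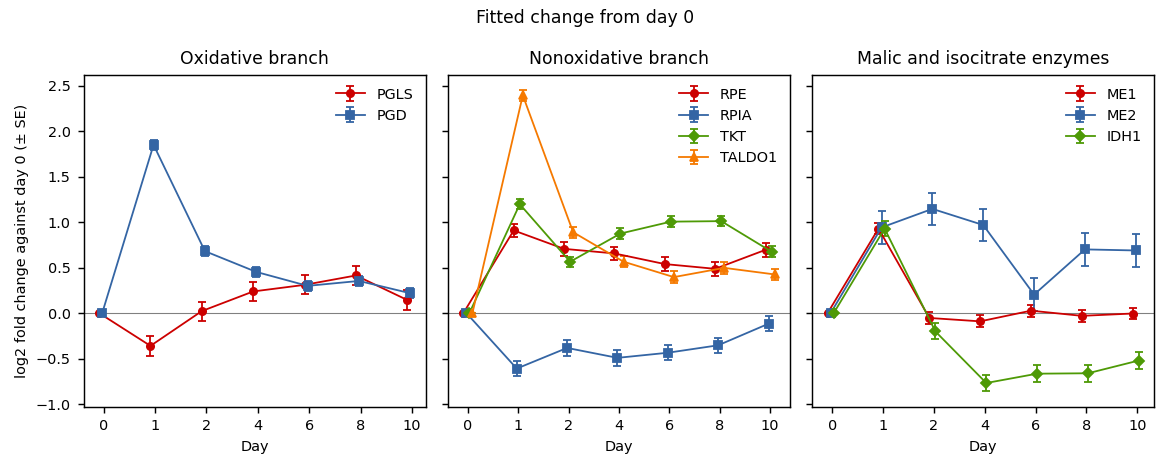
Fitted log2 fold change against day 0 (vertical axis) by day (horizontal axis), with bars of ± SE, for the 2 oxidative enzymes, the 4 nonoxidative enzymes and the 3 malic and isocitrate enzymes. PGD and TALDO1 peaked at 1.85 and 2.39 on day 1, TKT stayed between 0.56 and 1.20, RPIA lay below 0 on every day and IDH1 crossed from 0.93 on day 1 to -0.77 on day 4.

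In the oxidative branch, PGD, the dehydrogenase that makes NADPH and ribulose phosphate, stood at 203, 213, 192, 231 and 232 CPM in the 5 libraries of day 0. On day 1 it stood at 742, 767, 783, 812 and 754 CPM, so that the lowest day 1 library was over 3 times as high as the highest day 0 library. The log2 change was 1.85 ± 0.05 (Q = 1.86e-28). By day 2 the level was 343 ± 14.6 CPM, and it then lay at 293 ± 19.2, 263 ± 17.4, 273 ± 11.6 and 249 ± 11.6 CPM on days 4, 6, 8 and 10. Every library of these days was above every day 0 library, and PGD was called higher on all 6 days. On day 10 the log2 change was 0.22 ± 0.05 (Q = 0.00131). In the order of its days, the levels of day 4, 8, 6 and 10 overlapped with their neighbours, and those of days 1, 2 and 0 did not.

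PGLS, the lactonase that precedes PGD in the branch, was lower on day 1 and higher later. It stood at 30.7, 33.2, 27.3, 27.9 and 29.8 CPM on day 0 and at 23.1, 24.6, 23.9, 25.9 and 18.8 CPM on day 1, with no overlap and a log2 change of -0.36 ± 0.11 (Q = 0.00460). It was back at 30.1 ± 4.88 CPM on day 2 and reached 37.0 ± 4.06 CPM on day 6 and 39.8 ± 4.05 CPM on day 8. The rises of days 6 and 8 passed the threshold, with log2 changes of 0.31 ± 0.10 (Q = 0.0158) and 0.41 ± 0.10 (Q = 0.00116). The day 6 call was lost without replicate 5 of that day, the library with the highest level at 43.4 CPM, which left a log2 change of 0.25 (Q = 0.0661). On day 10 PGLS was at 33.0 ± 3.12 CPM, with a log2 change of 0.14 ± 0.10 (Q = 0.330). PGLS held the lowest count of any member in a library, 111, and ranged up to 339, while RPIA ranged from 131 to 288.

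**Figure D2:**
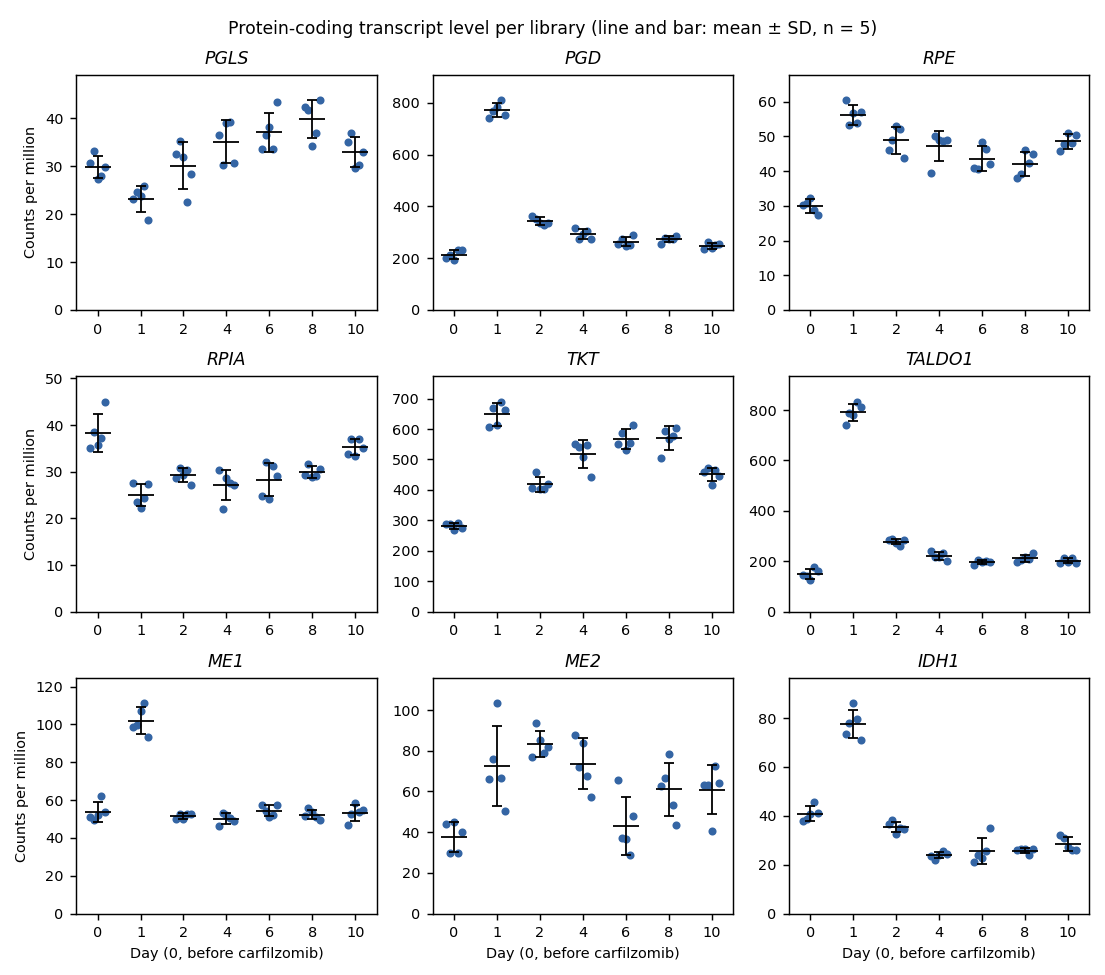
Level of each member in CPM (vertical axes, each from 0) by day (horizontal axes), with a point for each of the 35 libraries and the mean ± SD of 5 libraries as a line and bar. The day 1 libraries of PGD, TALDO1, ME1 and IDH1 sit above all others, TKT stays at 403 CPM or more after day 0, and the points of ME2 spread from 50.2 to 103 CPM within day 1.

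In the nonoxidative branch, the carbon-transferring enzymes TALDO1 and TKT had the larger changes on day 1. TALDO1, transaldolase, stood at 147, 143, 124, 176 and 162 CPM on day 0 and at 741, 788, 779, 834 and 812 CPM on day 1. All day 1 libraries were over 4 times as high as any day 0 library, and the log2 change was 2.39 ± 0.06 (Q = 5.68e-30), the highest of the 9 members. The level fell to 278 ± 11.4 CPM on day 2 and 222 ± 16.4 CPM on day 4, and lay between means of 198 and 212 CPM from day 6 to day 10. TALDO1 was called higher on all 6 days, with every library above every day 0 library and a log2 change of 0.42 ± 0.06 on day 10 (Q = 4.84e-07). TALDO1 is among the members whose window held no antioxidant response core, and PGD among those that held it.

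TKT, transketolase, stood at 287, 289.6, 269, 292 and 276 CPM on day 0 and at 607, 669, 612, 690.2 and 663 CPM on day 1, a log2 change of 1.20 ± 0.06 (Q = 2.36e-21). It then dipped to 418 ± 23.5 CPM on day 2 and rose again to 518 ± 46.0, 567 ± 32.4 and 569 ± 38.9 CPM on days 4, 6 and 8. TKT was the only member called higher than at the time point before it after day 2, and its day 6 and day 8 levels were 2.01 and 2.02 times that of day 0. The log2 changes of days 2 to 10 were 0.56 ± 0.06, 0.87 ± 0.06, 1.01 ± 0.06, 1.01 ± 0.06 and 0.67 ± 0.06, all called, and all libraries were above those of day 0. On day 10 the level was 451 ± 22.0 CPM. The paralogs TKTL1 and TKTL2 held at most 126 and 2 counts in a library over all biotypes, against 1433 to 4822 for the protein-coding entry of TKT alone.

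The epimerase RPE and the isomerase RPIA, which act on the same substrate, ribulose phosphate, were called in opposite directions from day 1 to day 8. RPE stood at 30.2, 30.9, 32.4, 28.9 and 27.3 CPM on day 0 and 60.6, 53.4, 56.7, 53.9 and 57.0 CPM on day 1, with a log2 change of 0.91 ± 0.07 (Q = 4.68e-14). Its level stayed at means of 42.1 to 48.9 CPM from day 2 to day 10, and all libraries of all 6 days were above those of day 0. The log2 changes of days 2, 4, 6, 8 and 10 were 0.71 ± 0.07, 0.66 ± 0.07, 0.54 ± 0.07, 0.49 ± 0.08 and 0.70 ± 0.07, all called. RPIA stood at 35.02, 38.6, 35.7, 37.3 and 45.0 CPM on day 0 and 27.6, 23.6, 22.2, 24.4 and 27.4 CPM on day 1, a log2 change of -0.61 ± 0.09 (Q = 8.50e-08). RPIA was called lower on days 1 to 8, with every library below every day 0 library and log2 changes of -0.38 ± 0.08, -0.49 ± 0.09, -0.44 ± 0.08 and -0.35 ± 0.08 on days 2, 4, 6 and 8. On day 10 it stood at 35.2 ± 1.68 CPM against 38.3 ± 4.00 CPM on day 0, with a log2 change of -0.12 ± 0.08 (Q = 0.322).

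Of the NADPH sources outside the pathway, ME1, the cytosolic malic enzyme, was raised on day 1 alone of the 6 days. It stood at 51.2, 49.2, 52.0, 62.3 and 53.5 CPM on day 0 and 98.6, 99.6, 107, 111 and 93.3 CPM on day 1, without overlap, and the log2 change was 0.93 ± 0.06 (Q = 1.23e-16). From day 2 to day 10 the means lay between 50.2 and 54.4 CPM, overlapping with day 0 on every day. The log2 changes of those days lay between -0.09 and 0.03 with an SE of 0.06, and their Q values between 0.293 and 1.00.

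IDH1, the NADP+-dependent isocitrate dehydrogenase of the cytosol and peroxisomes, rose as much on day 1 but then went below its starting level. It stood at 37.7, 38.9, 40.8, 45.7 and 41.2 CPM on day 0 and 73.4, 77.9, 86.0, 79.8 and 71.0 CPM on day 1, and the log2 change was 0.93 ± 0.08 (Q = 1.34e-12). On day 2 it stood at 35.4 ± 2.15 CPM, with a log2 change of -0.20 ± 0.09 that missed the threshold (Q = 0.0552) and passed it without replicate 1 or 2 of day 0, at -0.25 and -0.23, or replicate 2 of day 2, at -0.25. On day 4 all 5 libraries, at 23.7, 21.9, 23.8, 25.7 and 24.3 CPM, were below the lowest day 0 library. IDH1 was called lower on days 4, 6, 8 and 10, with log2 changes of -0.77 ± 0.09, -0.67 ± 0.09, -0.66 ± 0.09 and -0.52 ± 0.09 and no overlap with day 0. On day 6, replicate 5 stood at 34.9 CPM and the other libraries of that day at 21.1 to 25.7 CPM.

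ME2, the mitochondrial malic enzyme that can use NAD+ or NADP+, had a wider spread between subcultures than any other member on every day but day 2. Its protein-coding entry stood at 43.9, 29.5, 44.9, 29.7 and 40.0 CPM on day 0, 66.3, 75.9, 103, 66.5 and 50.2 CPM on day 1 and 76.8, 93.4, 85.4, 79.1 and 81.6 CPM on day 2. The libraries of days 1, 2 and 4 were all above those of day 0, and the log2 changes were 0.94 ± 0.18, 1.15 ± 0.17 and 0.97 ± 0.18, with Q of 1.71e-05, 4.44e-07 and 1.79e-05. On day 6 the level was 43.1 ± 14.2 CPM, with a log2 change of 0.20 ± 0.18 (Q = 0.433), and on days 8 and 10 it was called higher again, with 0.70 ± 0.18 and 0.69 ± 0.18, though libraries overlapped with day 0. The coefficient of variation of this entry within a day was 7.81% on day 2 and 20.0%, 27.0% and 33.0% on days 0, 1 and 6.

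The table also gives counts for other transcript biotypes of a gene, and for ME2 these varied against the protein-coding entry between libraries of a day. The protein-coding share of all ME2 counts was 54.0%, 37.7%, 55.9%, 38.5% and 51.4% in the day 0 libraries. The share of the biotype nonsense mediated decay, for transcripts with a premature stop, was 34.4%, 52.5%, 27.8%, 50.3% and 37.0% in the same order. The libraries with a low protein-coding share on day 0, replicates 2 and 4, had the high share of the other biotype. Summed over biotypes, ME2 stood at 68.0 ± 0.860 CPM on day 0, where CPM now refers to counts of all biotypes, with a coefficient of variation of 1.26% in place of 20.0%. The summed levels were 105 ± 7.68, 130.3 ± 3.79, 104 ± 3.82, 89.6 ± 2.02, 93.0 ± 2.88 and 92.5 ± 6.68 CPM on days 1, 2, 4, 6, 8 and 10. In this fit, added after the data were seen, the log2 changes were 0.63 ± 0.05, 0.94 ± 0.05, 0.62 ± 0.05, 0.40 ± 0.05, 0.45 ± 0.05 and 0.44 ± 0.05. All 6 were called, day 6 included (Q = 1.39e-08), and day 2 was the highest of them.

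**Figure D3:**
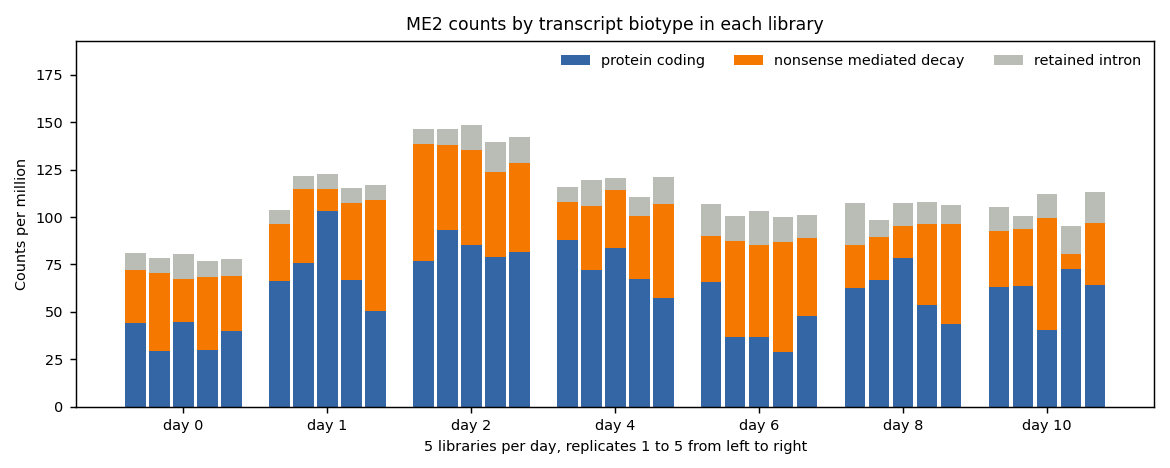
ME2 counts in CPM of protein-coding totals (vertical axis, stacked) by transcript biotype in each of the 35 libraries (horizontal axis, grouped by day, replicates 1 to 5 from left to right). Within a day the full bars are of like height while the protein-coding part varies, from 28.6% to 61.3% of ME2 counts on day 6.

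In the other members most counts were protein-coding. The share was 100% in RPIA and ME1, which had no other biotype, and at least 99.7% in RPE, 96.9% in PGD and 94.9% in IDH1, as means over a day. In TALDO1 the share of retained-intron transcripts was 5.18% ± 1.26 on day 0 and 1.47% ± 0.545 on day 1. In TKT it was 8.88% ± 1.14 and 5.79% ± 0.871, and in PGLS 12.6% ± 1.67 and 9.08% ± 2.07. All 6 members with retained-intron counts, also ME2, PGD and IDH1, had a lower mean share of them on day 1 than on day 0. For IDH1 the counts were few, 3 to 13 in a library of day 0 and 7 to 22 on day 1. Its shares overlapped, at 3.36% ± 1.55 and 2.50% ± 1.27. The same share over all genes is not given here, so this may not be particular to the members, and the difference was not tested. With biotypes summed, TALDO1 and TKT changed on day 1 by 2.38 ± 0.06 and 1.13 ± 0.06, and PGLS by -0.38 ± 0.10 on the log2 scale.

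Comparisons of each day with the time point before it show when the members turned. From day 1 to day 2, 6 members were called lower (against 19.4% of all entries) and 2 higher (against 20.2%). PGD, TALDO1 and IDH1 were lower by over 2-fold (against 3.49%), with log2 changes of -1.17 ± 0.05, -1.51 ± 0.06 and -1.13 ± 0.08. ME1, TKT and RPE fell by 0.98 ± 0.06, 0.63 ± 0.06 and 0.20 ± 0.07 on the log2 scale, and PGLS and RPIA, the members that had fallen on day 1, rose by 0.38 ± 0.11 and 0.23 ± 0.09. The RPIA rise (Q = 0.0338) was lost in 6 of the 10 fits that leave out a library of these days, without replicates 2, 3 and 4 of day 1 or of day 2, with log2 changes down to 0.19. The RPE fall (Q = 0.0158) was lost without replicate 1 of day 1, at -0.18, or replicate 5 of day 2, at -0.17.

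From day 2 to day 4, TKT was called higher (against 13.9%), by 0.31 ± 0.06, and 3 members lower (against 16.7%), PGD by 0.23 ± 0.05, TALDO1 by 0.32 ± 0.06 and IDH1 by 0.57 ± 0.09. From day 4 to day 6 none was called higher (against 6.09%), and ME2 was called lower by 0.76 ± 0.17 (against 5.98%), with 4 members at an unadjusted p under 0.05 (ME2, PGD, TALDO1 and TKT) and 3 called by DESeq2 (the first 3). With its biotypes summed, ME2 was called higher from day 1 to day 2, at 0.31 ± 0.05 (Q = 6.15e-07), and lower from day 2 to day 4, at -0.32 ± 0.05 (Q = 6.01e-07), and from day 4 to day 6, at -0.22 ± 0.05 (Q = 0.00141). From day 6 to day 8 no member was called by edgeR in either direction (against 1.03% higher and 1.53% lower), 1 had an unadjusted p under 0.05 (ME2, at 0.50 ± 0.17) and DESeq2 called 0. Without replicate 1 of day 6 the ME2 change of that step was called, at 0.72 (Q = 0.0137), while with biotypes summed it was 0.05 ± 0.05 (Q = 0.693). From day 8 to day 10 TKT was called lower (against 4.97%), by 0.34 ± 0.06 (Q = 2.98e-05), and no member higher (against 5.08%). In that comparison 5 members had an unadjusted p under 0.05 (TKT, PGD, PGLS, RPE and RPIA) and DESeq2 called 4, leaving out PGLS.

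Per kilobase of the canonical transcript, the levels on day 0 were in the order TALDO1, PGD, TKT, PGLS, RPIA, IDH1, ME1, RPE and ME2. The deposited counts may already be adjusted for gene length, and a single length was used for each gene, so this order is rough. TALDO1 stood at 126 ± 16.4 CPM per kilobase, PGD at 94.5 ± 7.75 and TKT at 94.3 ± 3.30, and the other 6 at 29.5 ± 2.32 (PGLS) down to 4.16 ± 0.833 (ME2). PGD and TKT differed by less than their spread. On day 1 TALDO1 reached 659 ± 29.3, PGD 340.3 ± 12.1 and TKT 216 ± 12.3 CPM per kilobase. On days 6 and 8 TKT was first in the order, at 189 ± 10.8 and 190.1 ± 13.0 CPM per kilobase, next to TALDO1 at 165 ± 5.59 and 177 ± 11.2. Together the 9 members held 0.0833% ± 0.00345 of protein-coding counts on day 0 and 0.264% ± 0.00664 a day after the pulse, then 0.137% ± 0.00208 by day 2 and 0.115% ± 0.00323 by day 10. No library of a later day fell to the highest day 0 share of 0.0870%.

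Over the 35 libraries, which share their days, PGD and TALDO1 had the most like pattern of any 2 members, with a Pearson r of 0.994 in log2 CPM. ME1 followed both, with r of 0.89 and 0.89, and IDH1 followed ME1 with r of 0.85. TKT had an r of 0.69 with RPE and 0.06 with IDH1. RPIA ran against PGD, TKT and RPE, with r of -0.60, -0.69 and -0.64, and PGLS ran against IDH1 and ME1, with -0.72 and -0.66.

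Among the 12301 entries that passed a filter on low counts (filterByExpr), the entry most like PGD was TALDO1 and the reverse, and next for both was SOD1, the cytosolic superoxide dismutase, with r of 0.988 and 0.989 over 35 libraries. SOD1 stood at 85.1 CPM on day 0, 623 CPM on day 1 and 123 CPM on day 10. ME1 was most like MSN, moesin (r = 0.966), and UBQLN1, a ubiquilin (0.965), and IDH1 most like FADS3, a fatty acid desaturase family member (0.965), and PITHD1 (0.956). TKT was most like ECSIT (0.920) and S100A10 (0.915), and RPE most like ANKRD17 (0.911) and RASAL1 (0.901). PGLS was most like RAC2 (0.866) and IMPDH2 (0.865), and RPIA most like SYNM (0.813) and DAP (0.810). ME2 had the lowest values, with FKBP5 at 0.767 and TBC1D4 at 0.766. The best matches of RPIA and ME2 were thus looser than those of PGD, TALDO1, ME1 and IDH1.

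Of 14 further genes of pentose phosphate metabolism, 3 were called higher and 4 lower on day 1, 6 and 3 on day 2, and 2 and 1 on day 10, with a median log2 change of 0.12 on day 1. Of all entries, 25.4% were called higher and 27.3% lower on day 1, 23.2% and 24.4% on day 2, and 16.1% and 15.8% on day 10. The 3 higher genes of day 1 became 7 without scaling factors, and 5 with biotypes summed or without replicate 1 or 3 of day 1. RPEL1, TKTL2 and PRPS1L1 had at most 3 counts in a library, so their changes are not read. PRPS1, which turns ribose phosphate into the precursor of nucleotides, rose from 64.7 ± 8.47 CPM to 171 ± 7.98 CPM on day 1, a log2 change of 1.40 ± 0.07. TKTL1, a transketolase paralog, fell from 12.2 ± 1.64 CPM to 2.06 ± 0.965 CPM on day 1 and was at 11.8 ± 1.56 CPM on day 2. TKTL1 and TKT thus moved in opposite directions on day 1, with log2 changes of -2.54 ± 0.21 and 1.20 ± 0.06. IDNK, a gluconate kinase, fell from 5.10 ± 0.799 CPM to 0.605 ± 0.326 CPM on day 1, and RBKS, ribokinase, was lower on day 2 by 1.14 ± 0.34. The protein-coding entry of DCXR, a xylulose reductase, rose on all 6 days, from 21.7 ± 6.88 CPM to 44.1 ± 2.95 CPM on day 1 and 64.8 ± 4.11 CPM on day 2. With biotypes summed the log2 change of DCXR on day 1 was 0.01 ± 0.07 (Q = 0.968) in place of 1.03 ± 0.13, and that of RBKS on day 2 was -0.32 ± 0.20 (Q = 0.194), so neither call held. On day 2 DCXR was called at 0.33 ± 0.07 with biotypes summed, in place of 1.59 ± 0.13, and on days 4, 6, 8 and 10 it was not called, at 0.04 ± 0.07, -0.17 ± 0.07, 0.08 ± 0.07 and -0.07 ± 0.07.

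Of 12 other genes linked to NADPH formation, 1 was called higher and 8 lower on day 1, against 7 and 2 of the 9 members and 25.4% and 27.3% of all entries, and their median log2 change was -0.47. The 8 lower genes include ME3, which is close to 0 counts. On day 2 the counts were 3 and 5, and on day 10 2 and 1. ALDH1L2, a mitochondrial folate dehydrogenase that makes NADPH, fell from 79.1 ± 11.1 CPM to 10.96 ± 3.41 CPM on day 1, a log2 change of -2.84 ± 0.16, and was called lower on all 6 days. MTHFD2, a mitochondrial folate enzyme that acts before it, fell from 229.7 ± 12.1 CPM to 102 ± 5.68 CPM on day 1 and stood at 241 ± 9.90 CPM on day 10. ME3, the third malic enzyme, had at most 4 counts in a library, so the call of its protein-coding entry on day 1 (Q = 0.0318) rests on a handful of counts. GLUD2 had at most 1 count in a library.

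Of 12 enzymes that spend NADPH, 10 were called higher and 1 lower on day 1 (all entries, 25.4% and 27.3%), and their median log2 change was 1.15. The biliverdin reductases BLVRB and BLVRA changed by 2.67 ± 0.09 and 1.49 ± 0.08 on that day, GSR, glutathione reductase, by 2.29 ± 0.10, and TXNRD1, thioredoxin reductase, by 2.01 ± 0.06. These are the enzymes that pass electrons from NADPH to bilirubin formation, glutathione and thioredoxin. CBR1, a carbonyl reductase, changed by 1.17 ± 0.10, and FASN, fatty acid synthase, by 1.13 ± 0.07 on day 1. FASN was highest on day 2, with a log2 change of 1.65 ± 0.07. FDXR, which feeds electrons to mitochondrial P450 enzymes, was called lower on all 6 days, with a log2 change of -1.28 ± 0.17 on day 1 and, with biotypes summed, of -2.32 ± 0.12. By day 10 the list held 6 higher and 3 lower genes (all entries, 16.1% and 15.8%) and a median log2 change of 0.21. The 3 lower genes became 1 without scaling factors or without replicate 4 of day 0, and ranged from 1 to 4 over the fits with a library left out.

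Of 4 regulators, 1 was called higher and 2 lower on day 1 (all entries, 25.4% and 27.3%), and all 4 lower on day 2 (all entries, 24.4%). TIGAR, a phosphatase known to direct glucose phosphate into the pentose phosphate pathway, had a level of 84.0 ± 5.49 CPM before the drug, which fell to 13.2 ± 1.54 CPM by day 1 and 4.10 ± 1.69 CPM by day 6. Its log2 changes of days 1, 2, 4, 6, 8 and 10 were -2.67 ± 0.15, -2.93 ± 0.15, -4.02 ± 0.17, -4.33 ± 0.17, -4.13 ± 0.17 and -3.89 ± 0.17, so that it was low while PGD and TALDO1 were high. BACH1, a repressor that competes with NRF2 for antioxidant response elements, stood at 178 ± 7.46 CPM on day 0, 138 ± 6.22 CPM on day 1 and 72.7 ± 3.18 CPM on day 2, with a log2 change of -1.29 ± 0.06 on day 2. The transcript of NRF2 itself, NFE2L2, had a log2 change of -0.12 ± 0.08 on day 1 (Q = 0.188) and of -0.82 ± 0.08 on day 2 (Q = 1.09e-11). The fourth, MAFG, a partner of NRF2 in DNA binding, was called higher on day 1, at 0.47 ± 0.07.

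**Figure D4:**
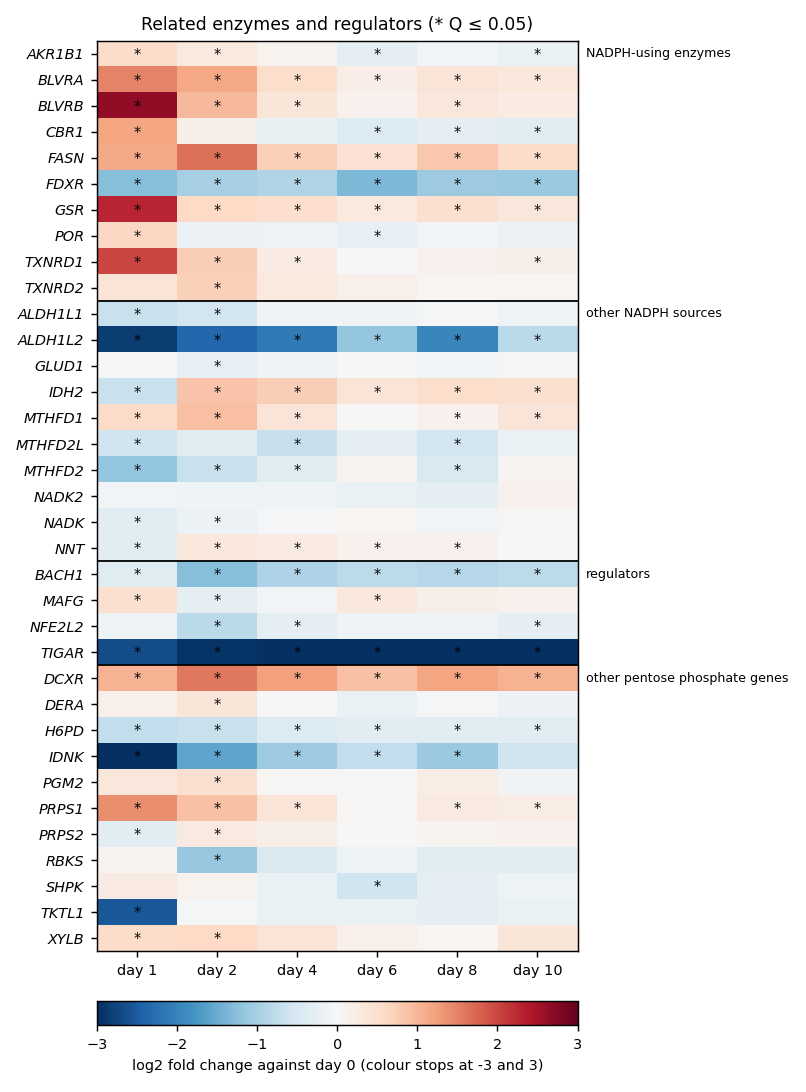
Fitted log2 fold change against day 0 (colour, red higher and blue lower) of related genes (rows, from 4 lists) on each day (columns), with an asterisk at Q ≤ 0.05 and without the genes that had almost no counts. The reductases BLVRB, GSR and TXNRD1 are deepest red on day 1, at 2.67, 2.29 and 2.01, and TIGAR is blue on every day, beyond the end of the colour scale at -4.33 on day 6.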

How the data were processed

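RNA-seq of 35 libraries, 5 subcultures on each of 7 days, was used. Per the study's methods, the authors quantified reads with kallisto 0.44.0 against the GENCODE transcriptome (GRCh38.p12). They summed transcripts with tximport and adjusted for gene length. The deposited values are thus estimated counts per symbol and transcript biotype, and may already carry this adjustment. They are whole numbers and were used as deposited, without rounding. The strand setting is not given in the sources used here. Of 84647 entries, the 19665 protein-coding ones were kept, and the 1666 without a count were left out of the tests, leaving 17999. Groups were taken from the day in the labels, which list the drug for day 0 too, although those cells were collected before it.

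In R 4.3.3, edgeR 4.0.16 (quasi-likelihood, TMM factors, day as a factor over all 35 libraries) gave log2 fold changes, and p-values were adjusted by Benjamini–Hochberg over the 17999 entries. A change was called at Q ≤ 0.05. SE is the absolute log2 fold change divided by the square root of F. CPM refer to TMM-scaled protein-coding totals, and log2 CPM for the correlations used a prior count of 2. The authors used DESeq2 1.25.8 in R 3.5.0. DESeq2 1.42.0, other scaling factors, filterByExpr, a replicate block, fits of 2 days and leaving out each library were the alternatives. Each of the 35 libraries was left out in turn. The routine was tested on simulated data.

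Named were all 9 members, the genes of the other 4 lists called with an absolute log2 fold change above 1 on any day against day 0, and the 2 entries most like each member by Pearson r. NFE2L2 and MAFG did not meet this rule and complete the 4 regulators. Markers, genes that overlap or copy a member and genes with almost no counts are also named. Others are said to be chosen after their values were seen. The members and lists were chosen with earlier results of these data known, not every enzyme of the pathway was analysed here, and some genes of the lists and markers are counted but not reported here by name. All 5 libraries of a day differed by more than counting noise, with no pair of identical libraries. Depth (5373835 to 9307889 protein-coding counts) sets the precision of the low members.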

Additional observations from a re-analysis of the deposited data

Results flagged for a closer look

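In 3 of the 63 groups of 5 libraries (9 members on 7 days), 1 library stood apart from the rest of its day by more than Dixon's 95% critical value of 0.71, and chance alone would give about 1 in 20. RPE on day 4 stood at 39.5 CPM in replicate 1, while the other libraries lay between 48.8 and 50.1 CPM. TKT on day 2 stood at 459 CPM in replicate 2, above the other libraries at 403 to 418 CPM. IDH1 on day 8 stood at 23.8 CPM in replicate 4, below the others at 25.8 to 26.6 CPM. The 3 libraries are of different days, and leaving out each of them changed no call of RPE on day 4, TKT on day 2 or IDH1 on day 8.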

How the results depend on the processing

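Values after a day alone are against day 0, and no log2 change that was called turned its sign under any alternative. With DESeq2, NADPH users lower were 2 in place of 1 (day 2), members higher were 2 in place of 0 (day 10 against day 8) and members lower were 2 in place of 1 (day 10 against day 8), 2 in place of 1 (day 2) and 3 in place of 1 (day 6 against day 4). With DESeq2's size factors in edgeR, NADPH users lower were 2 in place of 1 (day 2), members lower were 2 in place of 1 (day 2) and 3 in place of 1 (day 6 against day 4) and other NADPH sources higher were 1 in place of 2 (day 6). With low entries filtered out, NADPH users lower were 2 in place of 1 (day 2), members higher were 2 in place of 0 (day 10 against day 8) and 2 in place of 1 (day 4 against day 2), members lower were 2 in place of 1 (day 2) and 3 in place of 1 (day 6 against day 4), other NADPH sources lower were 2 in place of 1 (day 10) and regulators higher were 1 in place of 0 (day 8). Without scaling factors, NADPH users lower were 1 in place of 3 (day 10) and 1 in place of 2 (day 8), members higher were 2 in place of 0 (day 10 against day 8), members lower were 3 in place of 1 (day 6 against day 4), other NADPH sources higher were 4 in place of 2 (day 6), other pathway genes higher were 7 in place of 3 (day 1) and 4 in place of 2 (day 4) and regulators higher were 1 in place of 0 (day 8). With a fit of only the 2 days compared, NADPH users lower were 1 in place of 2 (day 8), members lower were 2 in place of 1 (day 6 against day 4), other NADPH sources higher were 1 in place of 2 (day 6) and 1 in place of 3 (day 8) and regulators higher were 1 in place of 0 (day 8). With biotypes summed per symbol, an alternative added after seeing the data, NADPH users lower were 2 in place of 1 (day 2) and 2 in place of 1 (day 4), members higher were 1 in place of 0 (day 10 against day 8), members lower were 2 in place of 1 (day 10 against day 8) and 3 in place of 1 (day 6 against day 4), other pathway genes higher were 5 in place of 3 (day 1), 1 in place of 2 (day 10) and 0 in place of 1 (day 6) and regulators higher were 1 in place of 0 (day 8). With DESeq2 the sign turned for PGLS at -0.0014 (day 2). With size factors the sign turned for PGLS at -0.0012 (day 2). With the filter the sign turned for ME1 at 0.0051 (day 4 against day 2) and PGLS at -0.016 (day 2). Without scaling the sign turned for ME1 at 0.062 (day 10), ME1 at 0.075 (day 2), ME1 at 0.023 (day 4), ME1 at 0.018 (day 8), ME2 at 0.0048 (day 10 against day 8) and RPIA at -0.0031 (day 6 against day 4). In the fit of 2 days the sign turned for ME1 at 0.012 (day 10). With summed biotypes the sign turned for ME1 at 0.025 (day 10), ME1 at 0.011 (day 2), ME1 at 0.0046 (day 8) and PGLS at -0.037 (day 2). The cause of these shifts was not tested. Without scaling factors the median log2 change of the 12301 entries that passed the filter was 0.12 on day 1, 0.13 on day 2 and 0.11 on day 4, and higher calls from day 4 to day 6 were 29.1% of calls in place of 50.5%. From day 6 to day 8, DESeq2 called 738 of all entries in place of 461, with 53.0% in place of 40.3% higher.

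To compare replicate numbers, the mean of each day was first subtracted from the log2 CPM of every entry that passed the filter. Only libraries of different days were paired, so the values below describe what remained after the day means were removed. Samples that share a replicate number correlated at -0.123 to 0.136 over 105 pairs, 1 pair above 0.1. Samples of other replicate numbers correlated at -0.166 to 0.160 over 420 pairs, 8 pairs above 0.1. Of the 35 libraries, 14 correlated best on average with their own number, out of 5 numbers. The numbers were not used to pair the samples in the main fit, and whether they mark a pairing was not tested. The replicate block moved the number of calls on day 1 from 9480 to 9314. With the replicate number as a block, members higher were 1 in place of 0 (day 10 against day 8) and members lower were 2 in place of 1 (day 6 against day 4). The sign turned under the block for ME2 at 0.012 (day 10 against day 8).

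Leaving out each library in turn, the log2 change ranged over 0 for IDH1 -0.050 to 0.15 (day 6 against day 4), IDH1 -0.048 to 0.15 (day 8 against day 6), ME1 -0.040 to 0.066 (day 10), ME1 -0.0094 to 0.064 (day 10 against day 8), ME1 -0.052 to 0.0095 (day 4 against day 2), ME1 -0.041 to 0.043 (day 8), ME2 -0.11 to 0.10 (day 10 against day 8), ME2 -0.0033 to 0.32 (day 6), PGLS -0.055 to 0.11 (day 2), PGLS -0.0067 to 0.12 (day 6 against day 4), RPE -0.085 to 0.019 (day 4 against day 2), RPIA -0.026 to 0.10 (day 6 against day 4) and TKT -0.017 to 0.058 (day 8 against day 6), none of them called with all libraries. Counts of calls ranged as follows, NADPH users higher 3 to 5 (day 6), NADPH users lower 1 to 4 (day 10), 1 to 2 (day 2), 1 to 2 (day 4), 1 to 2 (day 8), members higher 0 to 1 (day 10 against day 8), 1 to 2 (day 2 against day 1), 1 to 2 (day 4 against day 2), 0 to 1 (day 8 against day 6), members lower 1 to 2 (day 10 against day 8), 1 to 2 (day 2), 1 to 3 (day 6 against day 4), other NADPH sources higher 1 to 2 (day 6), 1 to 3 (day 8), other NADPH sources lower 1 to 2 (day 10), other pathway genes higher 3 to 5 (day 1), 1 to 2 (day 10), 2 to 4 (day 4), other pathway genes lower 1 to 2 (day 10) and regulators higher 0 to 1 (day 8). Ranges were also found for NADPH users higher, 10 to 11 (day 1), 5 to 7 (day 8) and 5 to 7 (day 10). Members higher ranged over 5 to 6 (day 4) and 4 to 5 (day 6), and members lower over 5 to 6 (day 2 against day 1). Other NADPH sources lower ranged over 6 to 8 (day 1), 3 to 4 (day 4) and 2 to 3 (day 8). Other pathway genes ranged over 5 to 7 higher (day 2), 2 to 3 lower (day 6) and 2 to 3 lower (day 8). Some changes passed the threshold only with a library left out. PGD from day 4 to day 6 passed the threshold without replicate 2 or 5 of either day (-0.17 to -0.20), and TALDO1 without replicate 2 or 5 of day 4 (-0.19 and -0.22). PGLS on day 4 passed without replicate 2 of day 0 (0.30) or replicate 2 or 5 of day 4 (0.31 and 0.30), and from day 2 to day 4 without replicate 2 of day 2 (0.31) or replicate 2 or 5 of day 4 (0.30 for both). From day 8 to day 10, PGLS passed without replicate 3 of day 8 (-0.32), RPE without replicate 3 or 5 (0.24 and 0.23) and PGD without replicate 1 (-0.16). The calls lost without a library, of PGLS, RPE and RPIA, stand beside their values above.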

Other observations

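The mitochondrial and reticular counterparts of the members, chosen after their values were seen, had other courses. IDH2, the mitochondrial NADP+-dependent isocitrate dehydrogenase, stood at 76.3 ± 8.16 CPM on day 0, 48.0 ± 6.07 CPM on day 1 and 138 ± 10.8 CPM on day 2. Its log2 changes on days 1, 2, 4, 6, 8 and 10 were -0.67 ± 0.08, 0.85 ± 0.07, 0.74 ± 0.07, 0.38 ± 0.07, 0.53 ± 0.07 and 0.47 ± 0.07, all called, with all libraries below those of day 0 on day 1 and all above on the later days. IDH1 was called higher on day 1 and lower from day 4 on, opposite to IDH2 on days 1, 4, 6, 8 and 10. The difference between both courses was not tested. H6PD, which carries out the oxidative steps before that of PGD inside the endoplasmic reticulum, was called lower on all 6 days, with log2 changes of -0.73 ± 0.06, -0.67 ± 0.06, -0.40 ± 0.06, -0.33 ± 0.05, -0.31 ± 0.05 and -0.32 ± 0.05 and all libraries below those of day 0, while PGD was called higher on all of them.

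Other NADPH sources, again chosen after their values were seen, are grouped by compartment. MTHFD1, of the cytosol, was called higher on days 1, 2, 4, 8 and 10, with 0.58 ± 0.05 on day 1 and 0.90 ± 0.05 on day 2. The mitochondrial MTHFD2 and ALDH1L2 stood at -1.17 ± 0.06 and -2.84 ± 0.16 on day 1. ALDH1L1, of the cytosol, was called lower as well, at -0.66 ± 0.07 on day 1 and -0.55 ± 0.07 on day 2. NNT, the mitochondrial transhydrogenase that makes NADPH from NADH, was called lower on day 1, at -0.33 ± 0.05, and higher on day 2, at 0.32 ± 0.05. NADK, the kinase that makes NADP+ in the cytosol, stood at -0.31 ± 0.05 on day 1 and 0.03 ± 0.05 on day 10 (Q = 0.697). These genes are part of the list of other NADPH sources, and the difference between compartments was not tested.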
